A study of Mus musculus with 6 samples.

Results

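The nuclear genes for the respiratory chain and the ATP synthase were examined in primary mesenchyme cells from the fetal mouse urogenital sinus (UGS), the tissue from which the prostate develops. The members were every probe set of the array whose gene symbol begins with Nduf, Sdha to Sdhd, Uqcr, Cox4 to Cox8 or Atp5, or is Cycs or Cyc1. This rule gave 172 of the 22626 probe sets, and 89 of the 12393 genes that have a probe set of their own. Of these genes, 38 belonged to complex I, 7 to complex II, 9 to complex III, 17 to complex IV and 17 to complex V, and 1 was cytochrome c. The prefixes also take in some factors that help to assemble a complex without being part of it, and these are named as such.

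Oxidative phosphorylation takes place at the inner mitochondrial membrane. Complex I accepts electrons from NADH and complex II, which is also the succinate dehydrogenase of the tricarboxylic acid cycle, accepts them from succinate. Coenzyme Q carries them to complex III and cytochrome c to complex IV, which reduces oxygen. Complexes I, III and IV pump protons as they do so, and complex V, the ATP synthase, makes ATP as the protons flow back. All subunits of complex II and most of those of the other complexes are encoded in the nucleus, made in the cytosol and imported. Many of their genes are known targets of the transcription factor NRF1 and of ETS family factors such as GABPA (also called NRF2). Estradiol is known to affect mitochondrial genes in several estrogen target tissues.

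Cells came from male CD-1 fetuses, an outbred stock, at gestation day 17, with the epithelial fraction removed by settling, and were used at first passage. The E2 group received 100 nM estradiol-17β for 4 days and the control group received the ethanol vehicle. All cells of both groups had been kept without estrogen for the 3 days before, in phenol red-free medium with charcoal-stripped serum, insulin, transferrin and selenium, and all were exposed to 690 pM dihydrotestosterone (DHT), an androgen that cannot be converted to estrogen. There were 3 arrays per group, Affymetrix mouse 430A arrays that give 1 fluorescence signal per probe set. How many fetuses or separate cultures stand behind each array is not given in the sources used here, so that the statistics measure the spread between these 6 arrays.

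The array medians of the deposited signals lay between 13.7 and 21.8 units, and each array was scaled to a common median. Correlations between arrays of 1 group were 0.934 to 0.960 and between groups 0.922 to 0.950. E2 replicate 2 and control replicate 3 stood apart in 1 control probe set, the 5′ part of 18S ribosomal RNA, at 288 and 281 units, against 22.8 to 44.7 units on the other 4 arrays. At an adjusted p under 0.05 in the limma fit over 14223 probe sets, 70 were higher and 36 lower in E2. Leaving out 1 array lowered the count of higher probe sets to 37 (E2 replicate 1) or 42 (E2 replicate 3), and the count of lower ones to 19 (E2 replicate 1), 17, 13 or 11 (control replicates 1, 2 and 3). Of the markers of mesenchyme, 8 of 9 were tested and summed to 11980 to 12850 units in E2 and 12300 to 14160 units in control, with none called. Of 7 epithelial markers, Cdh1, Epcam and Krt5 were below 10 units in both groups. The other keratins were dim and their sum with these was 132 to 138 units in E2 and 53.8 to 89.5 units in control. All 4 tested were higher in E2, by a median of 1.10 on the log2 scale, 2 of them at an unadjusted p under 0.05. Only Krt18 was called (73.0 units in E2, 39.7 units in control, adjusted p = 0.042). The 8 leukocyte markers summed to 500.1 to 606 units in E2 and 556 to 915 units in control, with none called and 7 of 7 tested lower in E2. The part of these cell types in the members' values was not tested. In a culture of mixed cells, fewer cells of a type and less RNA per cell cannot be told apart.

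To describe motifs that occur in some of these genes, promoter windows of RefSeq (build GRCm38.p6, 250 bases before to 50 bases after the transcription start) were searched on both strands. A window was at hand for 71 of the 84 member genes tested. Shares are of genes with a window, and a gene counted once if any of its windows held the motif. The NRF1 motif CGCNTGCG was found for 27 of the 71 genes (38.0%), against 20.6% of all genes tested on the arrays and 9.22% of all genes with a window. Of these 27 genes, 9 were of complex I, 3 of II, 3 of III, 10 of V and 1 was cytochrome c. Only 1 was of complex IV, Cox6a1, which is printed below. The ETS motif CCGGAAG was found for 28.2% of the member genes, 21.2% of the tested genes and 9.93% of all genes with a window. The YY1 motif AANATGGCG was found for 14.1%, 6.32% and 2.76% of the same sets of genes. The following 4 stretches are the 120 bases up to the start, 1 gene from each of complexes I, II, IV and V, read on the strand of the gene. Capitals mark NRF1 and ETS motifs on either strand, which do not overlap here, and Cox6a1 and Sdhd carry both.
Ndufaf4, chr4:24897963-24898082 (+): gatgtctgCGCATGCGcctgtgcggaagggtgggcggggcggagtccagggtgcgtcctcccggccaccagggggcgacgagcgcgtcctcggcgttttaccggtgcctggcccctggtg
Sdhd, chr9:50603850-50603969 (-): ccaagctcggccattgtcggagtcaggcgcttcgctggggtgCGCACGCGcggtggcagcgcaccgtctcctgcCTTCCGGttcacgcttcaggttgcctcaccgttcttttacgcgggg
Cox6a1, chr5:115348959-115349078 (-): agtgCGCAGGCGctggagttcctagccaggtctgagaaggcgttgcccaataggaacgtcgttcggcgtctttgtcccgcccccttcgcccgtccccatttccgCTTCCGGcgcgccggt
Atp5k, chr5:108434400-108434519 (-): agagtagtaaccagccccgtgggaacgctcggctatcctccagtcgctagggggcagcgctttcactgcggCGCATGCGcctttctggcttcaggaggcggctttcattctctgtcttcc

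A motif match is a description of the letters in these windows and not of binding. Member genes with the NRF1 motif had a median difference of -0.07 (27 genes) on the log2 scale, E2 minus control, and those without it -0.04 (44 genes). With the ETS motif the median was -0.08 (20 genes) and without it -0.04 (51 genes), and with the YY1 motif it was -0.09 (10 genes) and without it -0.06 (61 genes). The differences between these medians were not tested.

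The arrays detected most of the machinery. A probe set was tested where its mean was at least 10 units, as deposited, in E2 or in control. This was so for 154 of the 172 member probe sets and 84 of the 89 genes. Of the 154, 148 passed in both groups and 6 through the E2 group alone, 1 each for Sdhd, Cox5b, Cox6a2, Atp5a1 and Atp5c1 and 1 shared by Ndufa13 with another gene. Each of those 6 had to be higher in E2 to pass on that side alone, and nothing is drawn from their number. The 5 genes not tested were all of complex IV: Cox4i2, Cox7a1, Cox7c, Cox8b and Cox8c. A gene was given by its brightest probe set. Of the 84 genes tested, 74 had a mean of 100 units or more over the 6 arrays, and signals are compared here only within a probe set, since the brightness of different probe sets is not a measure of transcript level.

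No member was called. At an adjusted p under 0.05, 0 of 154 member probe sets were higher in E2, against 0.492% of all probe sets tested, and 0 were lower, against 0.253% (0.745% in either direction). The smallest adjusted p of any member was 0.245, for Ndufaf4. In a simulation, changes were placed in probe sets drawn from all 14223, and 2% of 1.5-fold changes and 26% of 2-fold changes were recovered. The median standard error was 0.215 over all probe sets tested and 0.125 over the member genes. The simulated shares are therefore not those of the members, and the count of 0 alone does not say which sizes of change it excludes. At an unadjusted p under 0.05, 2 were higher and 7 lower in E2. Both higher ones, of Cox6a2 and Cox5b, had passed the minimum through the E2 group alone, so that among members past it in both groups 0 were higher and 7 lower. Over all probe sets tested 3.44% were higher and 4.55% lower, 7.99% together. By probe set, both shares of the 154 members, 1.3% and 4.55%, were at or below these. By gene, 1 of 84 members was higher (1.19%; 3.61% of all genes) and 5 were lower (5.95%; 4.74% of all genes). The count of lower member probe sets was 4 without E2 replicate 2, 2 without control replicate 3 and 9 at most when 1 array was left out. At the study's thresholds, a 1.5-fold change with an unadjusted p in the same fit at or below 0.05, 3 member probe sets passed (3.94% of all probe sets did). These were dim probe sets of Ndufaf4, Cox6a2 and Cox5b.

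The intervals say how much of a change these arrays could have missed. Of the 84 member genes, 74 (88.1%) had a 95% interval of the difference that lay wholly within 1.5-fold either way, while 46.3% of all genes did. By probe set, 129 of 154 members (83.8%) did, against 41.2% of all, and 143 (92.9%) lay within 2-fold, against 75.5% of all. Among probe sets at 100 units or more, the shares were 95.9% of 121 members and 84.8% of all 3667. The 10 genes whose interval reached past 1.5-fold were Ndufaf4, Ndufaf7, Ndufa12, Ndufb1, Ndufb8, Sdhaf1, Cox6a2, Cox6b2, Atp5g1 and Atp5j2. For the other genes a change of 1.5-fold lay outside the interval, while smaller changes could lie within it.

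**Figure D1:**
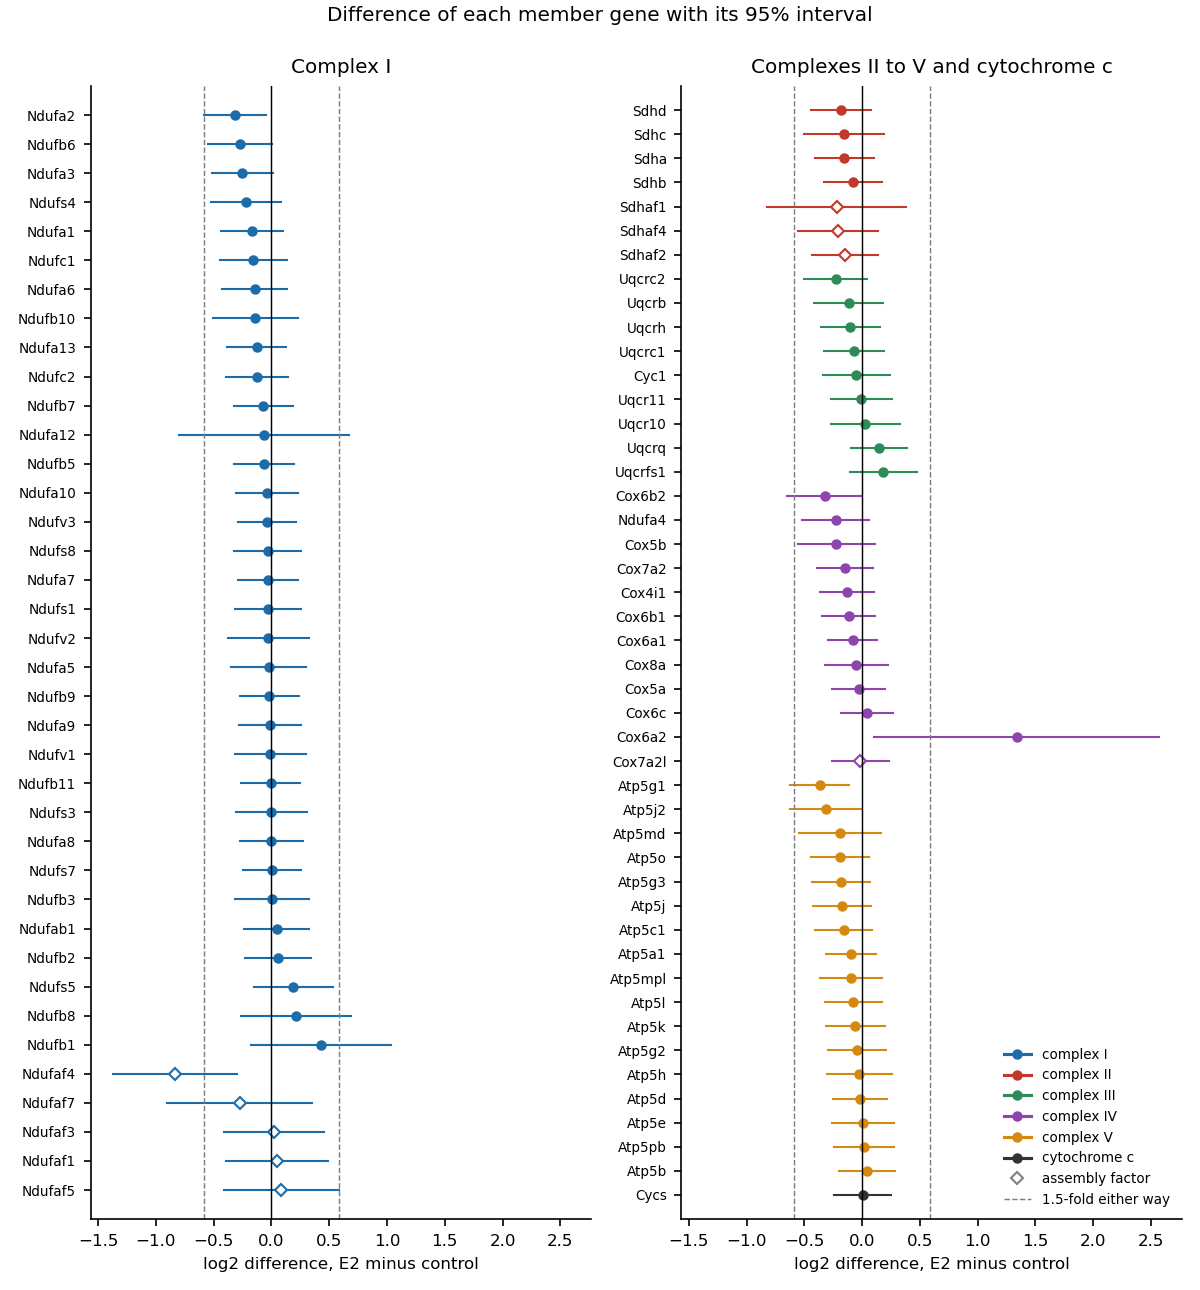
Difference between E2 and control cells for each of the 84 member genes, on the log2 scale (x axis, E2 minus control), by complex. Points are limma estimates, bars their 95% intervals, open diamonds assembly factors and dashed lines 1.5-fold either way. The intervals of 74 genes lie between the dashed lines, and Ndufaf4 (-0.83) and Cox6a2 (1.34) have the estimates farthest from 0.

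Complex I was represented by 38 genes, 33 of them for subunits and 5 for assembly factors. Its median difference was -0.03 (0.02 under quantile normalization, 0.03 as deposited), 27 of 38 genes lay below 0, and 23 lay between -0.1 and 0.1. The 6 core subunits measured carry the flavin site that takes up NADH or the iron-sulfur clusters, or help to bind quinone: Ndufs1, Ndufs3, Ndufs7, Ndufs8, Ndufv1 and Ndufv2. By their brightest probe sets, their differences lay between -0.03 and 0.00, with standard errors of 0.12 to 0.16. The other probe sets of Ndufs8 differed by -0.23, -0.13, -0.0009, 0.04 and, for a dim one, 0.66. Those of Ndufv2 differed by -0.13 and -0.22. The 27 accessory subunits, which surround the core, ran from -0.31 (Ndufa2) to 0.43 (Ndufb1), with a median of -0.04. This division was made after the values were seen. Ndufb1 was dim, and its value came from 1 array, E2 replicate 2, at 57.2 units, against 23.2 to 29.8 units on the other 5.

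Ndufaf4, an assembly factor of complex I, had the smallest p of any member. Its signal was 49.3, 25.5 and 51.8 units on E2 replicates 1 to 3, and 64.9, 67.1 and 85.0 units on control replicates 1 to 3. All E2 arrays were below all control arrays, and the lowest and highest values were on E2 replicate 2 and control replicate 3. The difference was -0.83 ± 0.25 (SE) on the log2 scale, or 0.561 of the control level, with a 95% interval of -1.37 to -0.30 and an adjusted p of 0.245. A dimmer second probe set differed by -0.23. The other 4 assembly factors, Ndufaf1, Ndufaf3, Ndufaf5 and Ndufaf7, ran from -0.27 to 0.09 with groups that overlapped.

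Ndufa2 is an accessory subunit of the arm that protrudes into the matrix. Its signal was 352, 432 and 376 units in E2, and 445, 460 and 538 units in control, so that the groups did not overlap. The difference was -0.31 ± 0.12, 0.804 of the control level (adjusted p = 0.527). Ndufb6, an accessory subunit of the membrane arm, read 263, 272 and 315 units in E2 and 322, 316 and 389 units in control, a difference of -0.27 ± 0.13 (adjusted p = 0.632). Ndufa3, another accessory subunit, read 677, 580.1 and 690 units in E2 and 747, 692 and 885 units in control, a difference of -0.25 ± 0.12 (adjusted p = 0.642). In all 3 genes the E2 arrays lay below the control arrays by less than the highest and the lowest control array lay apart. Ndufs4, an accessory subunit whose loss causes Leigh syndrome in humans, and Ndufc2 also showed no overlap, with differences of -0.22 and -0.13. Second, less bright probe sets of Ndufb6 (-0.14), Ndufa3 (-0.05), Ndufs4 (-0.08) and Ndufc2 (0.01) had groups that overlapped. The brightest probe set of the complex, for Ndufa13 (also known as GRIM-19), differed by -0.13 ± 0.12 and its groups overlapped.

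Across complex I, 6 of 38 genes (15.8%) had all E2 arrays below all control arrays and none had them above. Over all genes tested these shares were 8.54% and 6.01%. Over all probe sets tested they were 8.49% and 5.72%, and over the probe sets at 100 units or more 11.5% and 4.15%.

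Complex II had the lowest median of the 5 complexes, -0.16 (0.897 of the control level), and all 7 of its genes lay below 0, between -0.22 and -0.08, with Sdhb at 0.004 under quantile normalization. In 3 of its 7 genes the E2 arrays were all below the control arrays, as in 8.54% of all genes and 11.5% of all probe sets at 100 units or more. Sdha, the flavoprotein that oxidizes succinate, read 204, 203 and 217 units in E2, and 227, 233 and 235 units in control. The values within each group lay close together. The difference was -0.15 ± 0.12, 0.899 of the control level, with a 95% interval of -0.41 to 0.10 (adjusted p = 0.809). The standard error of the fit is larger than the spread of these 6 values, because limma draws each variance towards that of probe sets of similar signal. A second probe set of Sdha differed by -0.03.

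Sdhd, a membrane anchor of complex II, read 204, 195 and 202 units in E2, and 234, 215 and 234 units in control, again with no overlap. Its difference was -0.18 ± 0.12, or 0.882 of the control level (adjusted p = 0.760). A second, dim probe set of Sdhd went the other way (1.44), with control arrays averaging 4.37 units. Sdhaf2, which helps to attach the flavin to Sdha, read 131, 132 and 128 units in E2, and 135, 149 and 150.2 units in control, a difference of -0.15 ± 0.13. Sdhc, the other anchor, and Sdhb, the iron-sulfur subunit, differed by -0.16 and -0.08, and the assembly factors Sdhaf1 and Sdhaf4 by -0.22 and -0.21, each with overlap. Second, dimmer probe sets of Sdhaf2 and Sdhc differed by -0.01 and 0.04, with overlap. None of the 7 was past the threshold, at adjusted p of 0.760 to 0.920. With the mean of the probe sets of each gene in place of the brightest, the median of the complex was -0.08.

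In complex III, 1 of 9 genes had its E2 arrays wholly above control (11.1%; 6.01% of all genes) and 0 wholly below (8.54% of all genes). At 100 units or more it was the only such member probe set of 121 (0.826%; 4.15% of all probe sets of that signal). The gene was Uqcrq, a small subunit, at 421, 377 and 415 units in E2, and 359.6, 374 and 359.8 units in control. The lowest E2 array exceeded the highest control array by less than the values within either group lay apart. Its difference was 0.15 ± 0.11, or 1.11 times the control level (adjusted p = 0.801). Uqcrfs1, the Rieske iron-sulfur protein, differed by 0.18 ± 0.14, carried by E2 replicate 1 at 383 units, while the other E2 arrays, at 284 and 302 units, lay near the control arrays at 292, 294 and 260 units. Cyc1, the cytochrome that hands electrons to cytochrome c, read 384, 297 and 387 units in E2, and 388, 388 and 325 units in control, a difference of -0.05 ± 0.14 (0.01 as deposited).

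On the other side, Uqcrc2, a core protein of complex III, differed by -0.23 ± 0.13, with 301, 248 and 284 units in E2, and 349, 293 and 331 units in control. These groups overlapped only through E2 replicate 1 and control replicate 2. Its partner Uqcrc1 differed by -0.07, Uqcrh, the hinge protein, by -0.10, and Uqcrb, the brightest of the complex, by -0.11 ± 0.14. Second, less bright probe sets of Uqcrc2 and Uqcrb went the other way, by 0.06 and 0.07, with overlap. The median over the 9 genes was -0.05 (0.01 as deposited), with 6 of 9 below 0, and all 9 intervals lay within 1.5-fold. Without E2 replicate 2 the median was 0.04.

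Cytochrome c itself, the soluble carrier between complexes III and IV, had nearly the same mean in both groups. Cycs read 432, 379 and 407 units in E2, and 378, 439 and 398 units in control. The difference was 0.00 ± 0.12, with a 95% interval of -0.25 to 0.25, which corresponds to 0.843 to 1.19 times the control level. A second probe set also gave 0.00 and the dimmest of the 3 gave -0.13.

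**Figure D2:**
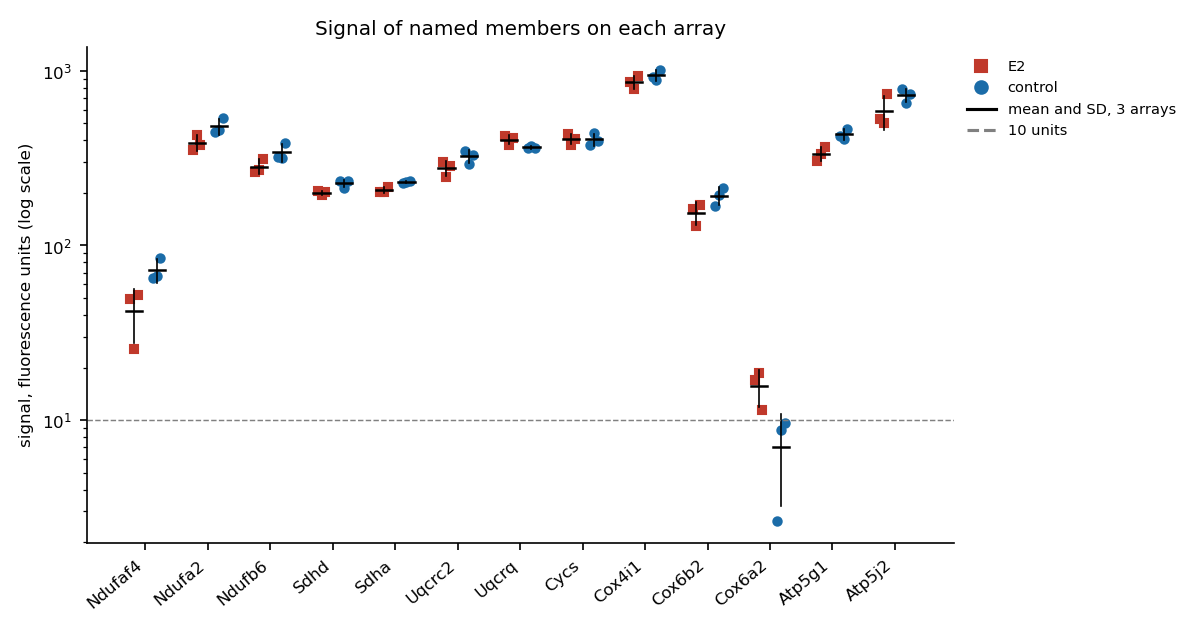
Median-scaled signal (y axis, fluorescence units, log scale) of 13 members on each array, with E2 as squares on the left and control as circles on the right of each pair. Horizontal bars are means and vertical bars SDs of 3 arrays, and the dashed line is at 10 units. E2 squares lie below all control circles for Ndufaf4, Ndufa2, Ndufb6, Sdhd, Sdha and Atp5g1 and above them for Uqcrq and Cox6a2, by small steps except for the dim Ndufaf4 and Cox6a2.

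In complex IV, cytochrome c oxidase, 12 of 17 genes were tested, with a median of -0.10 and 10 of 12 below 0. No gene had its E2 arrays wholly below control (8.54% of all genes), and 1 of 12 had them wholly above (6.01% of all genes). This was Cox6a2, which passed the minimum through the E2 group alone. Several subunits of this complex exist as alternative isoforms. Cox4i1, Cox6a1, Cox6b1, Cox7a2 and Cox8a are the widely expressed forms. Cox6a2, Cox7a1 and Cox8b are known from heart and skeletal muscle, Cox4i2 from lung and from low oxygen, and Cox6b2 and Cox8c from testis.

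The widely expressed isoforms all had an interval within 1.5-fold of control. Cox4i1 read 859.5, 791 and 936 units in E2, and 925, 888 and 1018 units in control, a difference of -0.13 ± 0.11 (adjusted p = 0.825). Cox6a1 differed by -0.08 ± 0.10, Cox6b1 by -0.12 ± 0.11 (0.0002 under quantile normalization), Cox7a2 by -0.15 ± 0.11 and Cox8a by -0.05 ± 0.13 (0.03 under quantile normalization, 0.01 as deposited), each with groups that overlapped. A second probe set of Cox6b1 differed by -0.24, without overlap.

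Among the other isoforms, Cox4i2, Cox7a1 and Cox8b averaged 9.25, 4.05 and 3.34 units in E2 and 9.11, 6.05 and 8.30 units in control, and were not tested. Cox6a2 read 16.9, 18.7 and 11.4 units in E2, and 2.66, 8.76 and 9.57 units in control, a difference of 1.34 ± 0.58 with an interval of 0.10 to 2.57 (adjusted p = 0.587). Of 6 markers of striated muscle, only Des, which smooth muscle also expresses, was above the minimum. Cox6b2 was well above it, at 163, 129 and 171 units in E2, and 169, 195 and 214 units in control. Its difference was -0.33 ± 0.15, 0.798 of the control level (adjusted p = 0.625), and the groups overlapped through control replicate 1.

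Cox5b, a nuclear subunit near the matrix face, had 5 tested probe sets. Its brightest probe set read 1892, 2691 and 2275 units in E2, and 2152, 2556 and 3352 units in control, a difference of -0.22 ± 0.16. The next 3 by brightness differed by -0.27, -0.13 and -0.25. The fifth read 15.7, 28.0 and 19.2 units in E2, and 6.49, 2.70 and 13.8 units in control, a difference of 1.71 (adjusted p = 0.340). This dim probe set passed the minimum through the E2 group alone, which fixed its sign, and none of the 5 passed the test. Over the members, 42 genes had more than 1 probe set past the minimum in both groups, and in 13 of these the probe sets had both signs. Among probe sets at 100 units or more this was so in 9 of 28 genes.

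Ndufa4, named for complex I but now placed in complex IV, read 666, 534 and 667 units in E2, and 606, 789.9 and 799 units in control, a difference of -0.23 ± 0.14 (adjusted p = 0.722). The groups overlapped through control replicate 1. Cox7a2l, which helps to join complexes III and IV into supercomplexes, differed by -0.01 ± 0.11. Cox5a and Cox6c differed by -0.03 and 0.04.

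Complex V had 17 genes, all tested, with a median of -0.09 and 14 of 17 below 0. The catalytic F1 head is built from 5 subunits. These were Atp5a1 (-0.09), Atp5b (0.04), Atp5c1 (-0.16), Atp5d (-0.02, and 0.10 under quantile normalization or 0.04 as deposited) and Atp5e (0.01), with a median of -0.02. The rotating ring in the membrane is built from the c subunit, and 3 genes, Atp5g1, Atp5g2 and Atp5g3, encode the same mature protein with different import sequences.

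These 3 genes ran from -0.37 to -0.04 and the F1 subunits from -0.16 to 0.04, a division made after the values were seen. Atp5g1 read 306, 336 and 366 units in E2, and 423, 408 and 466 units in control, with no overlap. Its difference was -0.37 ± 0.12, 0.776 of the control level, with a 95% interval of -0.62 to -0.11. The adjusted p was 0.340. Atp5g3 differed by -0.18 ± 0.12 and Atp5g2 by -0.04 ± 0.12. The differences between the 3 genes, and between them and the F1 subunits, were not tested.

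Of the stalk and membrane subunits, Atp5j2, the f subunit, read 528, 505 and 742 units in E2, and 786, 658 and 735 units in control, a difference of -0.31 ± 0.14 (adjusted p = 0.624). The groups overlapped because E2 replicate 3 lay among the control arrays, and a second probe set differed by -0.12. Atp5o, the peripheral stalk subunit that confers sensitivity to oligomycin, read 349, 381 and 405 units in E2, and 416, 412 and 466 units in control, a difference of -0.19 ± 0.12 (adjusted p = 0.736), with no overlap. Atp5j (-0.18) and Atp5a1 (-0.09) showed no overlap either. The next probe sets by brightness of Atp5o (0.27, dim) and Atp5a1 (-0.04) had groups that overlapped. In all, 4 of 17 genes had their E2 arrays wholly below control (8.54% of all genes) and none wholly above (6.01% of all genes).

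Over all members the differences were small and leaned downwards. The median over the 84 genes was -0.06 (0.956 of the control level), with quartiles of -0.16 and 0.00, and 64 of 84 (76.2%) lay below 0. Over all genes tested the median was -0.03 and 56.1% lay below 0. Over all probe sets tested the median was -0.04 and 56.6% lay below 0. The lean grew with signal over the whole array, with medians of -0.03 under 100 units, -0.05 from 100 to 1000 units and -0.09 above 1000 units. For genes at 100 units or more the median was -0.06 over 74 members and -0.05 over all 2423, and 59 (79.7%) of these members lay below 0, against 63.3% of all. By probe set at that signal the shares below 0 were 82.6% and 65.7%. The E2 arrays lay wholly below control in 13 of 84 member genes (15.5%; 8.54% of all genes) and wholly above in 2 (2.38%; 6.01% of all genes). By probe set, these were 17 of 154 (11%; 8.49% of all) and 3 (1.95%; 5.72% of all). Those wholly above include Cox6a2 and, by probe set, also a dim one of Cox5b, which passed the minimum through the E2 group alone. Among members at 100 units or more, 12.4% of probe sets lay wholly below control, against 11.5% of all probe sets of that signal.

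**Figure D3:**
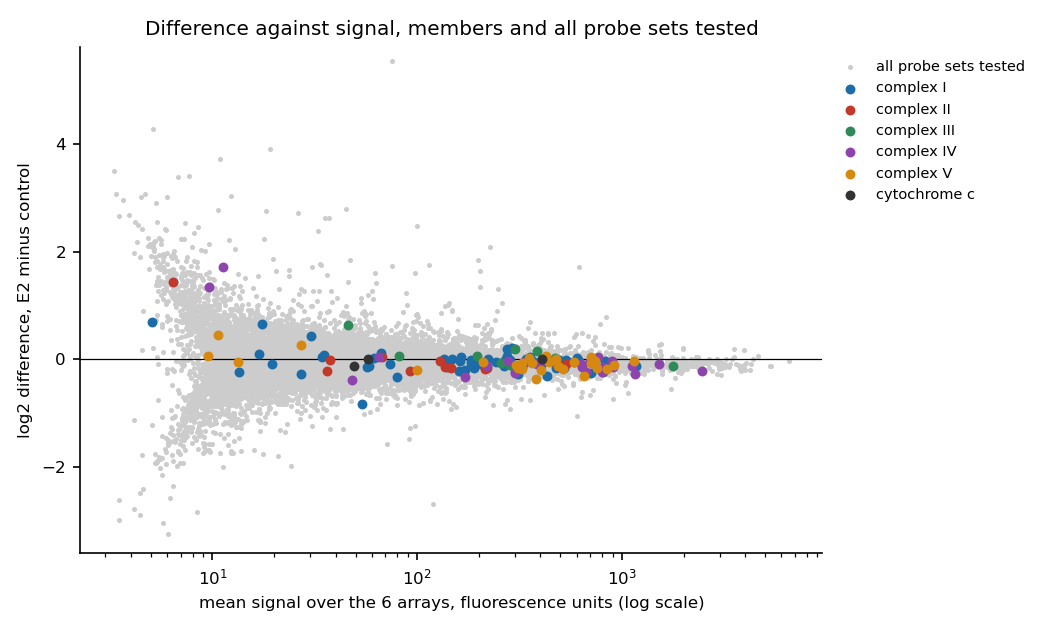
Difference of each tested probe set (y axis, log2, E2 minus control) against its mean signal over the 6 arrays (x axis, fluorescence units, log scale), with the members coloured by complex over all 14223 probe sets in grey. Most members are bright and lie slightly under 0, inside the grey band (their median is -0.06, and -0.01 under quantile normalization). The members farthest above 0, dim probe sets of Cox5b, Sdhd and Cox6a2, passed the minimum through the E2 group alone, and nothing is drawn from their place.

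The lean sat on 2 arrays. As the median deviation of the 84 genes from the midpoint of the group means, E2 replicates 1 to 3 stood at 0.01, -0.15 and 0.03, and control replicates 1 to 3 at -0.02, 0.01 and 0.13. Only E2 replicate 2 and control replicate 3, the 2 arrays with high 18S signal, were more than 0.03 from 0, and they lay on opposite sides. On the other 4 arrays the order was the reverse by a small step, with both E2 arrays above both control arrays. The same array order appeared over all probe sets tested, more weakly for control replicate 3, with 0.04, -0.11 and 0.04 in E2 and 0.01, 0.02 and 0.05 in control. E2 replicate 2 held the lowest of the 6 values in 46 of the 84 member genes, and control replicate 3 held the highest in 46. Over all genes tested these shares were 35.1% and 22.2%. Among genes at 100 units or more, they were 59.5% and 56.8% of 74 members and 49.9% and 31.7% of all 2423 genes.

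**Figure D4:**
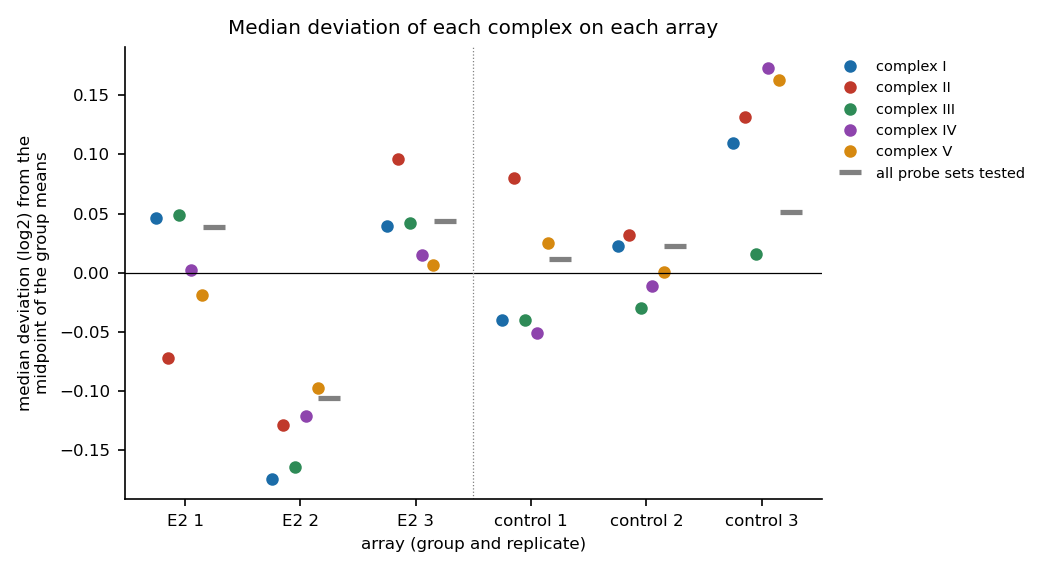
Median deviation of the genes of each complex (y axis, log2, from the midpoint of the group means) on each array (x axis, E2 on the left of the dotted line and control on the right), with all probe sets tested as grey bars. All 5 complexes are lowest on E2 replicate 2, and complexes I, II, IV and V are highest on control replicate 3.

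With both of these arrays left out, the median of the members was 0.02 and that of all probe sets tested was also 0.02. By complex it was then 0.07 for I, -0.12 for II, -0.01 for III, -0.003 for IV and -0.02 for V. Without E2 replicate 2 alone the members' median was -0.01, and complexes I and III stood at 0.03 and 0.04. Without control replicate 3 alone it was -0.03, with complex I at 0.00, IV at -0.04 and V at -0.04. Under quantile normalization the members' median was -0.01, and for the values as deposited it was -0.003. The median of complex II lay below 0 under each of these settings and each of the other alternatives run, from -0.19 to -0.08. The part of the 18S signal in the members' values was not tested.

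The medians of complexes I to V spanned -0.16 to -0.03, and the differences between complexes were not tested. Complex I lay closest to 0 and complex II farthest, and neither holds a gene past the threshold. The 9 assembly factors among the members had a median of -0.15, against -0.06 for the 74 subunits of complexes I to V. These assembly factors ran from -0.83 to 0.09, with 3 above 0. Their median standard error was 0.20, against 0.12 for the subunits, and the difference between the 2 medians was not tested.

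Genes that act with the chain outside these prefixes were examined as lists, and no gene of any list was called at an adjusted p under 0.05. Of 33 further assembly factors listed, 23 were tested, with a median of -0.03. Cox19, a copper protein needed for complex IV, had the smallest p among them, with 113 units on average in E2 and 88.7 units in control, a difference of 0.35 ± 0.15 (adjusted p = 0.576). Cox18 differed by 0.22 and Cox17, a copper chaperone, by -0.24.

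The regulators of mitochondrial biogenesis were mostly dim. Of 16 on the array 14 were tested, with a median of -0.06. Gabpa read 64.4, 20.9 and 38.5 units in E2, and 46.2, 46.0 and 65.6 units in control, a difference of -0.48 ± 0.32 (adjusted p = 0.759). Tfam, which packages and transcribes mitochondrial DNA, differed by 0.33 ± 0.24, and Mef2a by -0.17 ± 0.13. Nrf1 averaged 18.8 units in E2 and 23.0 units in control, and Ppargc1a, the coactivator PGC-1α, was below the minimum, at 3.65 units in E2 and 3.44 units in control.

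The 16 genes of the tricarboxylic acid cycle and pyruvate dehydrogenase had a median of -0.11, with 12 below 0. Idh2, the NADP-dependent isocitrate dehydrogenase of mitochondria, averaged 128 units in E2 and 162 units in control, a difference of -0.36 ± 0.18 (adjusted p = 0.676). Pdha1 differed by -0.19 and Cs, citrate synthase, by -0.16. The 11 carriers and channels had a median of -0.04, with Vdac2, a channel of the outer membrane, at -0.20, Slc25a5, an ADP/ATP carrier, at 0.14 and the dim Slc25a13 at 0.57.

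The 14 genes tested for electron entry by other routes and for coenzyme Q had a median of 0.07. Etfdh, which passes electrons from fatty acid oxidation to coenzyme Q, read 138, 103 and 104 units in E2, and 81.5, 76.0 and 102 units in control, a difference of 0.41 ± 0.17 (adjusted p = 0.579), with no overlap. Coq6 and Coq10a differed by 0.36 and 0.38. The 74 genes of the mitochondrial ribosome, which translates the subunits encoded in mitochondrial DNA, had a median of 0.02, with 32 below 0. Mrps7 differed by -0.31, Mrpl45 by -0.26 and the dim Mrpl1 by 0.94, none past the threshold. The mitochondrially encoded subunits were not analysed here.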

How the data were processed

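The 6 arrays of E2 and control cells were analysed. The authors turned scanned images into tables with Affymetrix software and deposited 1 linear signal intensity per probe set and array. Which signal algorithm, background correction and scaling were applied is not given in the sources used here. No counts stand behind the values, and the number of arrays limits the precision.

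After 64 control probe sets were left out, each array was scaled to the mean of the 6 medians and log2 was taken. Those with an average of 10 units or more as deposited in either group, 14223 of 22626, were fitted with limma 3.58.1 (R 4.3.3; lmFit, eBayes with trend, E2 minus control, two-sided, Benjamini-Hochberg over all tested, threshold 0.05). Probe sets with several symbols (8 members) were counted but never named. The brightest probe set stood for its gene, and can share signal with paralogs or pseudogenes (45 tested members have an x_at or s_at suffix).

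Named were, in each complex, the 4 genes of smallest p, the brightest and all with an unadjusted p under 0.05, the isoform pairs of complex IV, Cycs and Cyc1, and in other lists up to 3 genes of smallest p. Ndufb1, Ndufs4, Ndufc2, the core and F1 subunits, the other Ndufaf and Sdhaf factors, Sdhc, Uqcrc1, Cox5a, Cox6c, Cox7a2l, Cox7c, Cox8c, Atp5g2, Atp5j, Atp5k, Nrf1 and Ppargc1a were named after their values were seen. The members and lists were chosen with earlier results of these data known. The fit was tested on simulated data.

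The fit was repeated with quantile normalization, with unscaled deposited values, with signals below 10 units set to 10, with 16 units added before log2, without the filter or with it at 100 units, without the variance trend, with a replicate block, with array weights, without each array in turn, and on the 4 arrays of low 18S signal. Averaging a gene's probe sets was also tried.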

Additional observations from a re-analysis of the deposited data

How the results depend on the processing

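No member passed an adjusted p of 0.05 under any of the 16 alternatives fitted, with a smallest adjusted p of 0.158 (without E2 replicate 3). Of 493 values of the 31 named genes under the alternatives, 470 kept their direction and 23 did not, with sizes of at most 0.15 on the log2 scale. Of all probe sets tested, 70 were higher and 36 lower in E2, and these counts became 39 and 7 for the values as deposited, 41 higher with the filter at 100 units, 15 and 1 without the variance trend, and 112 and 70 with array weights. With 1 array left out they ran from 37 to 75 and from 11 to 31. The members at an unadjusted p under 0.05 were 1 lower as deposited, 0 higher with the filter at 100 units, 2 lower without the trend, 4 higher with array weights, and 6 higher with 2 lower without both arrays of high 18S signal. With 1 array left out they ran from 2 to 3 higher and from 2 to 9 lower. The members' median ran from -0.10 to -0.01, complex I from -0.09 to 0.03, II from -0.19 to -0.14, III from -0.12 to 0.044, IV from -0.13 to -0.04 and V from -0.14 to -0.04. With a gene's probe sets averaged, complex II stood at -0.079. The median of all probe sets was -0.01 under quantile normalization, 0.02 as deposited and -0.01 with array weights. The sign turned under quantile normalization for Sdhb (0.0042), Atp5d (0.095), Cox6b1 (0.00023) and Cox8a (0.026). As deposited it turned for Atp5d (0.041), Cox8a (0.0106) and Cyc1 (0.0114), and with array weights for Atp5d (0.034), Cox8a (0.031) and Cyc1 (0.0023). Without both arrays of high 18S signal it turned for Sdhb (0.042), Atp5d (0.095), Cox6a1 (0.0030) and Cox8a (0.15). With 1 array left out, 5 genes turned: Uqcrb (-0.220 to 0.044), Atp5d (-0.090 to 0.057), Cox8a (-0.12 to 0.054), Cyc1 (-0.13 to 0.076) and Cycs (-0.045 to 0.064). The cause was not tested. Arrays of the same replicate number did not deviate together (r of 0.01, -0.05 and -0.06 over probe sets). With deviations from means of only 3 arrays, this cannot show whether the numbers pair them. With the replicate block 61 probe sets were higher and 27 lower, at the unadjusted p there were 3 members on the higher side and 5 on the lower, and the members' median was -0.06.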
